A study of Arabidopsis thaliana with 9 samples.

Results

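Chlorophyll and heme share one biosynthetic route, and 8 Arabidopsis thaliana genes of that route were followed here across wild type (Col), bri1-116 and AtGATA2ox. The genes were taken by their annotated names, in pathway order: HEMA2, GSA1, HEMB1, HEME1, hemf2, CHLM, PORB and AT1G74470. Each had exactly 1 named probe set among the 22746 tested, and all 8 identifiers were of the plain type, designed for 1 transcript. Whole seedlings of the Columbia-0 ecotype had been grown in darkness for 108 h on MS medium with 1% sucrose and frozen without light, and total RNA was read on single-colour arrays, 3 for each genotype. Col was the untransformed control, and bri1-116 was a null allele of the brassinosteroid receptor kinase BRI1, whose homozygotes were sorted out singly from a segregating stock after freezing. AtGATA2ox was a transgenic line overexpressing the GATA-type transcription factor AtGATA2 in the Columbia background, with neither the promoter nor the number of lines given in the labels. The series sets both genotypes beside the same wild type to ask how light and brassinosteroid control of seedling development meet.

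In plants the route starts in the plastid from glutamate bound to its transfer RNA, which is turned into aminolevulinic acid, the step at which flow is mainly controlled. The ring is then built and oxidised to protoporphyrin, which receives magnesium on the way to chlorophyll or iron on the way to heme. In darkness a seedling halts at protochlorophyllide, because protochlorophyllide oxidoreductase of flowering plants needs light, and phytochrome-interacting factors, which repress light responses, hold many genes of the route down until the seedling is lit.

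Neither BRI1 nor AtGATA2 had a named probe set, so the genotype labels were not checked by their own genes here. Arrays of 1 genotype correlated at 0.891 to 0.941 across probe sets, and arrays of different genotypes at 0.848 to 0.911. The hybridisation controls, RNAs added in known amount, had a mean log2 intensity of 9.78 to 9.99 on the Col arrays, 10.2 to 10.5 on bri1-116 and 10.7 to 11.1 on AtGATA2ox. Actin signal at the 3′ end over that at the 5′ end, a ratio that grows with shorter RNA or cDNA, ranged from 1.81 to 2.03 on Col arrays, from 2.86 to 4.88 on bri1-116 arrays and from 3.66 to 5.45 on AtGATA2ox arrays. A second pair of actin probe sets gave 9.29 to 15.7, 14.5 to 33.4 and 24.7 to 45. The 25S ribosomal RNA probe set read 8762.9, 3533.8 and 107.7 on bri1-116 replicates 1, 2 and 3, and between 110.4 and 502.8 on the other 6 arrays. The hybridisation controls and both actin ratios were higher in the mean in bri1-116 and AtGATA2ox than in Col, while the ribosomal signal set apart 2 arrays within bri1-116, and the part of these measures in the results below was not tested. Of the root markers, PYK10 was bright on all 9 arrays (10209.4 to 22033.7), while no seed storage or light-exposed tissue marker had a named probe set.

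The receptor mutant held more transcript of most of these genes. In bri1-116, 6 of the 8 genes rose against Col, by 1.79-fold (GSA1) to 3.3-fold (CHLM), none fell, and HEMA2 and hemf2 were not called. Over all probe sets 7.09% were called higher and 8% lower. The median log2 fold change was 1.09 over the 8 genes and -0.02 over all probe sets. In AtGATA2ox, HEMB1, HEME1, CHLM and PORB were called higher than in Col, HEMA2 and hemf2 lower, and GSA1 and AT1G74470 were not called. There 9.72% of all probe sets were called higher and 18.8% lower, and the medians were 0.43 over the 8 genes and -0.17 over all. The 2 lower calls among 8 genes are not set apart from that 18.8%. The arrays of bri1-116 and Col did not overlap for the same 6 genes, each higher in the mutant (18.2% of all probe sets), and those of AtGATA2ox and Col for 4 higher (15.6%) and 3 lower genes (25.7%). Calls rest on limma with a Benjamini-Hochberg adjusted p under 0.05, fold changes are on the log2(intensity + 1) scale, and n = 3 arrays in each group throughout. In whole seedlings, a changed share of cell types and a changed amount of transcript per cell cannot be told apart, for rises as for falls.

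**Figure D1:**
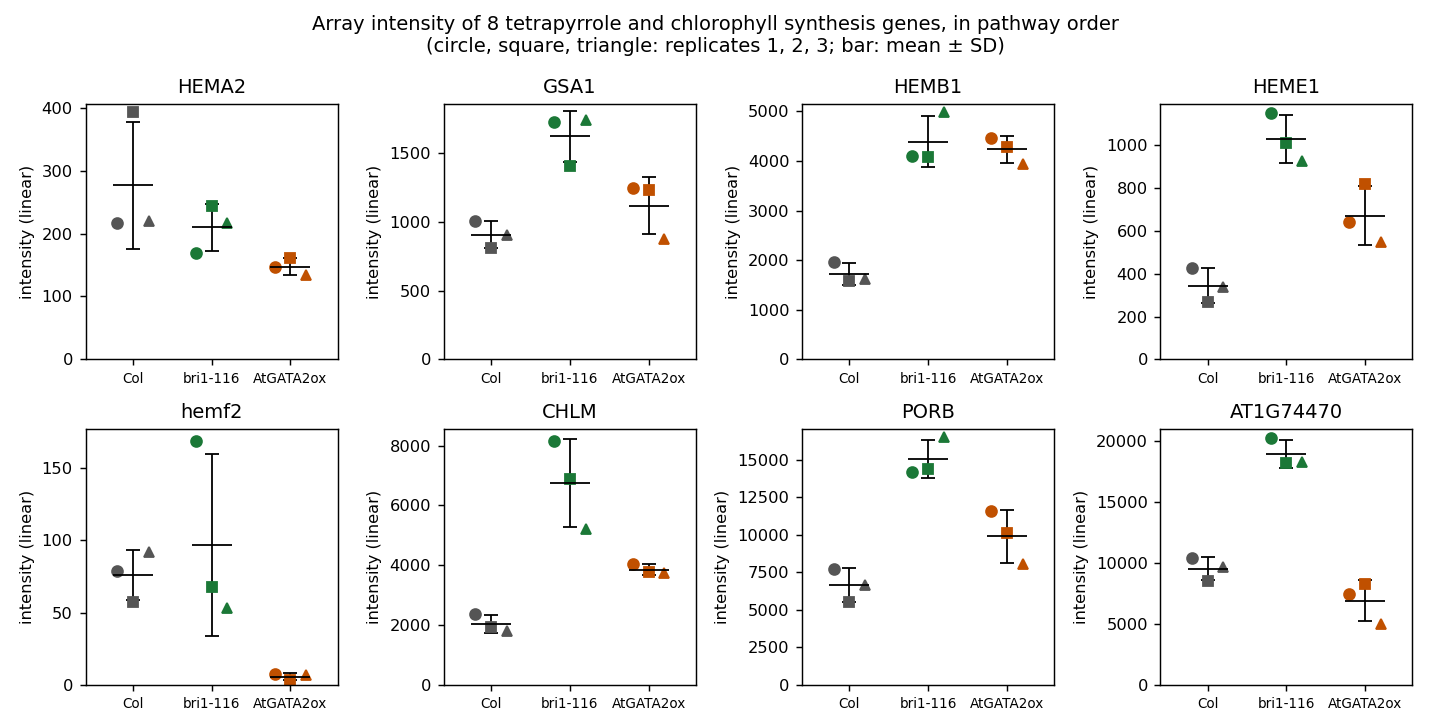
Linear array intensity of each gene, 1 panel a gene in pathway order, with the arrays of Col, bri1-116 and AtGATA2ox as points (circle, square and triangle for replicates 1, 2 and 3) and bars for the mean ± SD of 3 arrays. All bri1-116 points lie above all Col points for GSA1, HEMB1, HEME1, CHLM, PORB and AT1G74470, and hemf2 lies between 3.1 and 7.2 in AtGATA2ox.

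The first 2 steps, which make aminolevulinic acid, did not move together. HEMA2 encodes a glutamyl-tRNA reductase, an isoform known from roots and flowers, in contrast to the light-induced HEMA1. It read 216.9, 393.4 and 220.7 in Col, 169.2, 243.7 and 216.3 in bri1-116, and 147, 160.5 and 133.6 in AtGATA2ox. Col replicate 2 stood well above the other Col arrays, Col and bri1-116 overlapped, and every AtGATA2ox array lay below every array of the other genotypes. HEMA2 fell 1.81-fold in AtGATA2ox against Col (log2 fold change -0.86 ± 0.29, SE, adjusted p = 0.043), while in bri1-116 it was at -0.36 ± 0.29 (adjusted p = 0.52; 95% interval -0.99 to 0.27). The call depended on single arrays. Its adjusted p was 0.051, 0.22 and 0.055 without Col replicates 1, 2 and 3, and 0.065 and 0.093 without AtGATA2ox replicates 1 and 3, and the call was lost in 9 of the 14 alternatives run. The 3 measured root markers summed to between 16260 and 22153.1 in Col, between 14985.3 and 16340.8 in bri1-116 and between 10348.6 and 18620.5 in AtGATA2ox. Nearly all of this sum was PYK10. By itself PYK10 was not called in AtGATA2ox (-0.45 ± 0.22, adjusted p = 0.16) or in bri1-116 (-0.33 ± 0.22, adjusted p = 0.4). Of the 3 markers only the root hair expansin EXPA18 was called in AtGATA2ox (-2.59 ± 0.75, adjusted p = 0.02). It was dim there, at 29.6, 3.7 and 15.3, near the medians of the Bacillus controls (9.7 to 21), which have no plant target. The size of that change is therefore not exact. The other root hair expansin, EXPA7, was dim too (15.3 to 123.9 over the 9 arrays) and not called (0.4 ± 0.79, adjusted p = 0.76). The part of these 3 markers in the HEMA2 value was not tested.

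GSA1 encodes glutamate-1-semialdehyde aminotransferase, the enzyme that completes aminolevulinic acid. Its intensity was 1006.5, 811.3 and 903.6 in Col, 1724.8, 1409.3 and 1737.6 in bri1-116, and 1243.7, 1233.7 and 878 in AtGATA2ox. All bri1-116 arrays were above all others, and AtGATA2ox replicate 3 dropped into the Col range. GSA1 rose 1.79-fold in bri1-116 (0.84 ± 0.17, adjusted p = 0.0041) and was at 0.29 ± 0.17 in AtGATA2ox (adjusted p = 0.25; 95% interval -0.08 to 0.66). With centring on the median it was called higher there (0.63, adjusted p = 0.022), and lower once arrays were scaled by their hybridisation controls (-0.76, adjusted p = 0.0096).

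The next enzymes assemble and trim the ring. HEMB1, aminolevulinate dehydratase, joins aminolevulinic acid molecules into porphobilinogen. It was at 1965.6, 1573 and 1626.4 in Col, 4103.9, 4077.9 and 4981.3 in bri1-116, and 4471.5, 4290.9 and 3933.8 in AtGATA2ox. Both genotypes stood clear of Col and overlapped each other. HEMB1 rose 2.55-fold in bri1-116 (1.35 ± 0.15, adjusted p = 3.3e-05) and 2.47-fold in AtGATA2ox (1.3 ± 0.15, adjusted p = 2.3e-05). The direct comparison of AtGATA2ox with bri1-116 gave -0.05 ± 0.15 (adjusted p = 0.86), with a 95% interval of -0.36 to 0.27. Scaled to the hybridisation controls it was called lower in AtGATA2ox (-0.6, adjusted p = 0.036).

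HEME1 encodes uroporphyrinogen III decarboxylase, which shortens the side chains of the first closed ring. Its 3 Col arrays read 427.6, 267.3 and 336.5, those of bri1-116 read 1148.3, 1007.6 and 925.9, and those of AtGATA2ox 640.9, 819.3 and 548.3. The 3 genotypes formed 3 separate ranges, with AtGATA2ox in the middle. The rise was 3.03-fold in bri1-116 (1.6 ± 0.21, adjusted p = 0.00015) and 1.95-fold in AtGATA2ox (0.97 ± 0.21, adjusted p = 0.0033).

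The symbol hemf2 stands for a second coproporphyrinogen III oxidase gene, of the enzyme that precedes protoporphyrinogen. Its probe set was dim, at 78.9, 57.6 and 92.1 in Col, 168.9, 68.1 and 53.1 in bri1-116 and 7.2, 3.1 and 6.8 in AtGATA2ox. Controls from Bacillus, which have no plant target, had medians of 9.7 to 21 on the AtGATA2ox arrays, so hemf2 lay below them there, and its highest bri1-116 value came from 1 array. hemf2 was lower in AtGATA2ox than in Col (-3.57 ± 0.67, adjusted p = 0.0013), a difference that was -2.07 with 16 in place of 1 added to each intensity and was called in all 13 alternatives that tested it. The size is therefore not exact, here and against bri1-116. In bri1-116 hemf2 was at 0.18 ± 0.67 (adjusted p = 0.92; 95% interval -1.26 to 1.62).

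The last 3 genes belong to the chlorophyll branch. CHLM encodes magnesium protoporphyrin IX methyltransferase, which acts just after magnesium is inserted. It read 2376.3, 1917.8 and 1789.9 in Col, 8165.5, 6867.6 and 5224.6 in bri1-116, and 4048.8, 3763.9 and 3739.3 in AtGATA2ox. No 2 genotypes overlapped, and the spread was widest in bri1-116 (6753 ± 1474, SD). CHLM had the largest rise of the 8 genes in bri1-116 (3.3-fold, 1.72 ± 0.17, adjusted p = 2.1e-05), with 2.54% of all probe sets changed upward at least as much. It rose 1.91-fold in AtGATA2ox (0.93 ± 0.17, adjusted p = 0.0013), where 14.4% of probe sets reached that change.

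PORB encodes a light-dependent protochlorophyllide oxidoreductase, which holds protochlorophyllide in the etioplast until light arrives and, unlike PORA, stays expressed after illumination. PORB intensity was 7722.6, 5493.4 and 6678.6 in Col, 14200.9, 14366.4 and 16482.6 in bri1-116, and 11552.8, 10093.6 and 8013.6 in AtGATA2ox. Again the 3 ranges were separate, although AtGATA2ox replicate 3 came close to the highest Col array. PORB rose 2.28-fold in bri1-116 (1.19 ± 0.18, adjusted p = 0.00057) and 1.49-fold in AtGATA2ox (0.57 ± 0.18, adjusted p = 0.033). The AtGATA2ox call was lost without Col replicate 2 (adjusted p = 0.15) or 3 (0.081) and without AtGATA2ox replicate 1 (0.095) or 2 (0.059), and with quantile normalisation (0.21, adjusted p = 0.48).

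AT1G74470 encodes geranylgeranyl reductase, which makes the phytyl tail that anchors chlorophyll in the membrane and also serves tocopherol. It read 10422.5, 8506.6 and 9642.5 in Col, 20185.8, 18146.3 and 18271.7 in bri1-116, and 7402.3, 8237.8 and 4990.7 in AtGATA2ox. All 3 bri1-116 arrays were above Col and the AtGATA2ox arrays all below it, an order that no other of the 8 genes showed without overlap. AT1G74470 rose 1.99-fold in bri1-116 (0.99 ± 0.19, adjusted p = 0.0031). In AtGATA2ox it was at -0.5 ± 0.19 against Col and was not called (adjusted p = 0.073; 0.024 without AtGATA2ox replicate 2, and 0.26 as the highest value with any other array left out). It was called lower with quantile normalisation (-0.85, adjusted p = 0.0054), when the dimmest 40% were removed (-0.5, adjusted p = 0.035) and once arrays were scaled by their hybridisation controls (-1.55, adjusted p = 2e-04), and was at -0.16 with centring on the median (adjusted p = 0.64).

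**Figure D2:**
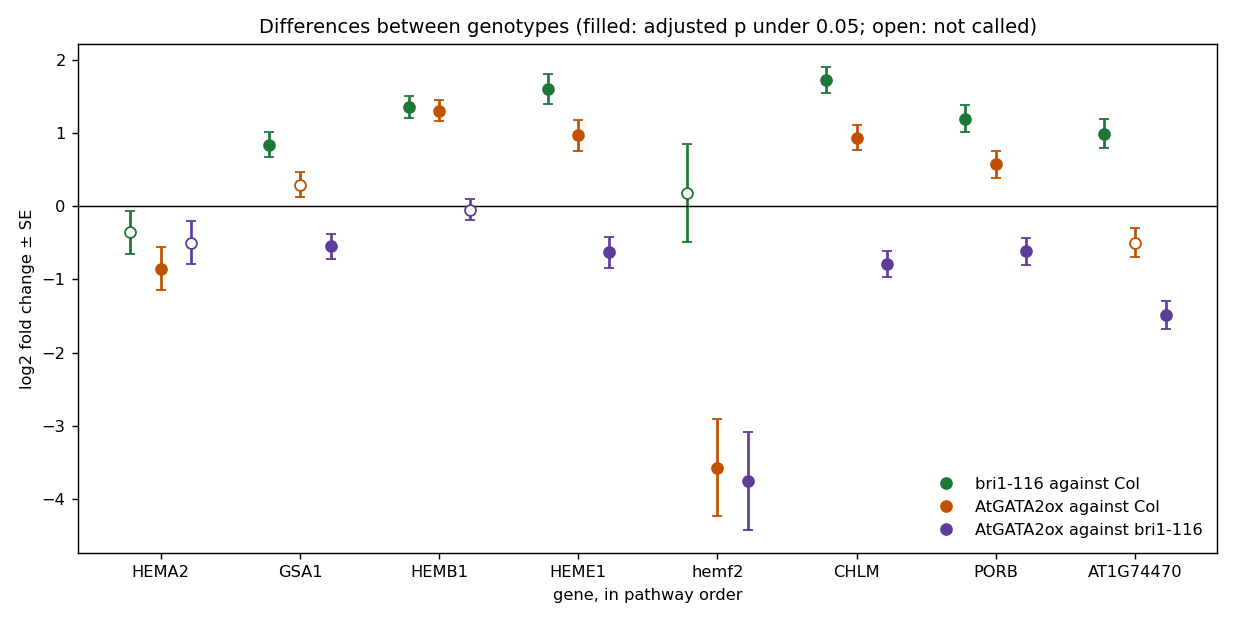
Log2 fold change ± SE of each gene (n = 3 arrays in each group) for bri1-116 against Col, AtGATA2ox against Col and AtGATA2ox against bri1-116, with filled points for an adjusted p under 0.05 and open points for genes not called. HEMB1 is at 1.35 and 1.3 against Col in the 2 genotypes, while AT1G74470 is at 0.99 in bri1-116 and -0.5 in AtGATA2ox.

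The 6 rises in bri1-116 were called with each single array left out, with quantile normalisation and with centring on the median. GSA1 lost its call when limma was run without a trend in intensity (adjusted p = 0.051), which left 5. Scaling to the hybridisation controls shifted all fold changes here by -0.5, and 3 were then called (HEMB1, HEME1 and CHLM), and with replicate 3 as the lone bri1-116 array 4 were, as GSA1 (0.94, adjusted p = 0.065) and AT1G74470 (0.94, adjusted p = 0.11) dropped out.

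In AtGATA2ox that scaling shifted all fold changes by -1.05, so a rise smaller than that shift falls below 0 by construction. The median of the 8 genes was then -0.62. It was 0.6 above that of all probe sets, as with the intensities as deposited, because a common shift cannot alter that distance. Quantile normalisation can alter it, and gave medians of 0.33 over the 8 genes and 0.01 over all, 0.32 apart. With the hybridisation controls HEMB1 was at 0.25, HEME1 at -0.08, CHLM at -0.12 and PORB at -0.48, none of them called. With them hemf2, HEMA2, AT1G74470 and GSA1 (-4.62, -1.91, -1.55 and -0.76) were called lower. Of all 22746 probe sets, 12042 were called lower there and 419 higher, so these lower calls do not set the 8 genes apart.

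**Figure D3:**
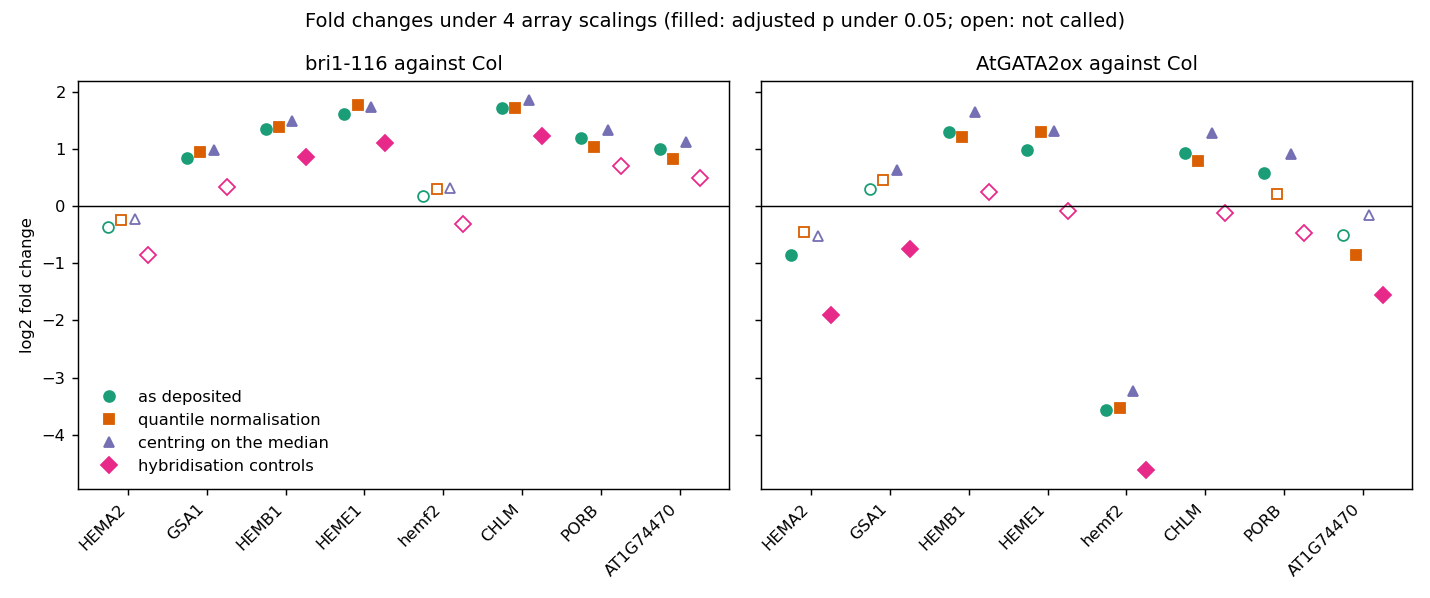
Log2 fold change of each gene against Col in bri1-116 (left) and AtGATA2ox (right) with the intensities as deposited, after quantile normalisation, after centring on the median and after scaling to the hybridisation controls, filled where the adjusted p is under 0.05. In bri1-116 CHLM, HEME1 and HEMB1 stay above 0 and called under all 4, while in AtGATA2ox CHLM goes from 0.93 to -0.12 with the hybridisation controls.

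Both comparisons with Col share the Col arrays, so the genotypes were also compared directly. In AtGATA2ox all 8 genes had a lower mean than in bri1-116, and 6 were called lower, where 17.2% of all probe sets were called lower and 9.55% higher. Arrays of the 2 genotypes did not overlap for 7 genes, each lower in AtGATA2ox (23.1% of all probe sets), HEMB1 being the exception. The median was -0.62 over the 8 genes and -0.16 over all probe sets. AT1G74470 was 2.8-fold lower (-1.49 ± 0.19, adjusted p = 9.2e-05) and was called in all 15 alternatives. hemf2, below the Bacillus control medians in AtGATA2ox, was called lower (adjusted p = 0.00095), at -3.75 ± 0.67 with 1 added to each intensity and at -2.24 with 16. CHLM was 1.73-fold lower (-0.79 ± 0.17, adjusted p = 0.0043). HEME1 (-0.63 ± 0.21, adjusted p = 0.038), PORB (-0.62 ± 0.18, adjusted p = 0.024) and GSA1 (-0.55 ± 0.17, adjusted p = 0.03) were lower too, and HEMA2 was at -0.5 ± 0.29 (adjusted p = 0.25). With arrays scaled by their hybridisation controls all 8 were called lower, HEMA2 at -1.05 (adjusted p = 0.024) included. Of all 22746 probe sets, 7538 were called lower there and 938 higher.

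Those 3 smaller differences depended on the processing and on single arrays. With centring on the median none of the 3 was called (adjusted p = 0.2 for HEME1, 0.18 for PORB and 0.21 for GSA1). HEME1 was not called with quantile normalisation either (adjusted p = 0.12). HEME1 lost its call without bri1-116 replicate 1 (adjusted p = 0.14), 2 (0.095) or 3 (0.055) and without AtGATA2ox replicate 1 (0.075) or 3 (0.12). PORB lost it without bri1-116 replicate 1 (0.054), 2 (0.058) or 3 (0.085) or AtGATA2ox replicate 3 (0.087), and GSA1 without bri1-116 replicate 1 (0.11) or 3 (0.097) or AtGATA2ox replicate 3 (0.1).

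By their means, 7 of the 8 genes were highest in bri1-116, and for 5 of these (GSA1, HEMB1, HEME1, CHLM and PORB) AtGATA2ox lay between bri1-116 and Col. Of those 5, HEMB1 was not called between AtGATA2ox and bri1-116, nor GSA1 between AtGATA2ox and Col, with the intensities as deposited. Within AtGATA2ox, replicate 3 had the lowest value of the 3 arrays for 7 of the 8 genes, hemf2 being the exception, against 35.4% of all probe sets. Within Col, replicate 1 was highest for 6 of the 8 genes (33.1% of all probe sets) and replicate 2 lowest for 6 (28.9%).

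**Figure D4:**
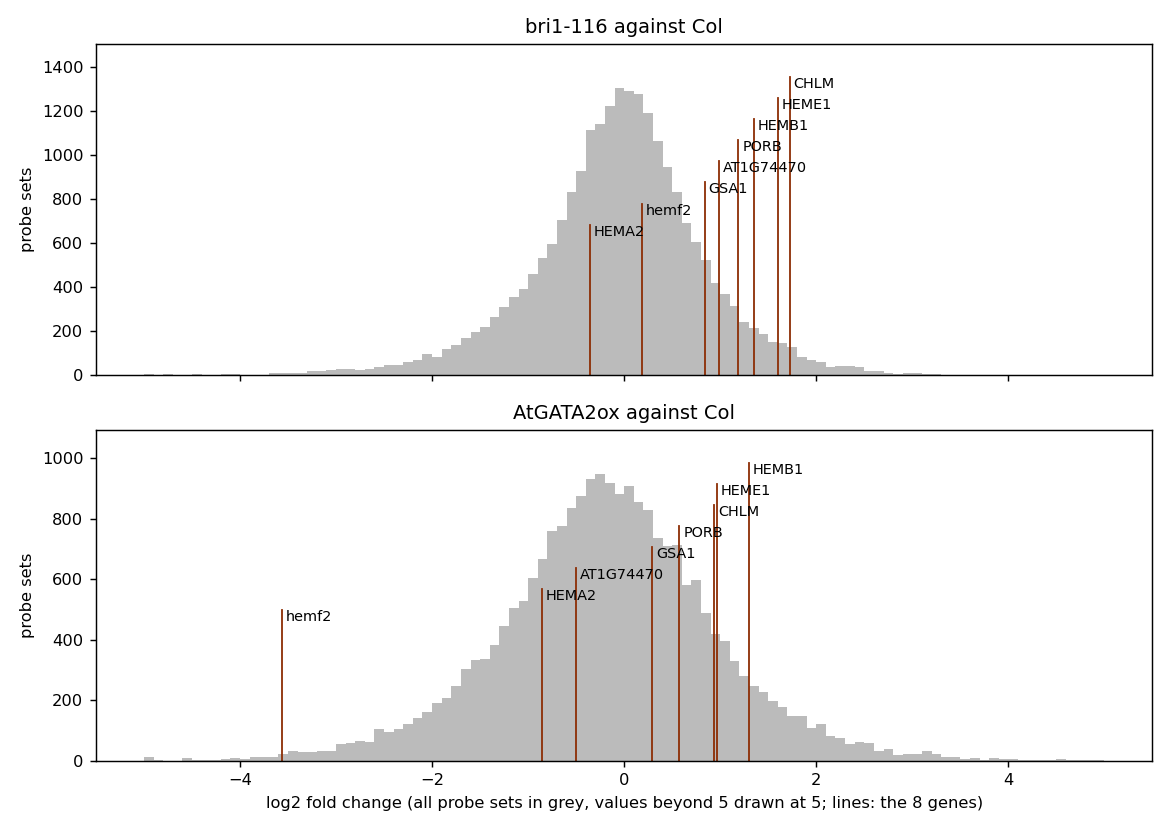
Distribution of log2 fold changes over all 22746 probe sets (grey bars, number of probe sets in each bin) in bri1-116 against Col (top) and AtGATA2ox against Col (bottom), with a line for each of the 8 genes. In bri1-116 the 6 called genes lie on the upper flank, with 2.54% of probe sets at or above CHLM, while in AtGATA2ox the genes range from hemf2 at -3.57 to HEMB1 at 1.3.

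A difference between 2 genes on the same array is not altered by a single scaling factor of that array, whichever factor is used. Quantile normalisation is not a single factor and can alter such a difference. With it HEME1 was at 1.29 and HEMB1 at 1.2 in AtGATA2ox against Col, in place of 0.97 and 1.3. The absolute size of a difference has no meaning, because probe sets respond differently. The pairs were chosen after the values were seen, so no p is given. The log2 intensity of AT1G74470 minus that of CHLM was 2.13, 2.15 and 2.43 in Col, 1.31, 1.4 and 1.81 in bri1-116, and 0.87, 1.13 and 0.42 in AtGATA2ox. Ranges of the 3 genotypes were separate, and relative to CHLM the reductase gene was lower by 0.73 in bri1-116 and by 1.43 in AtGATA2ox on the log2 scale. AT1G74470 minus PORB lay between 0.43 and 0.63 in Col, between 0.15 and 0.51 in bri1-116 and between -0.68 and -0.29 in AtGATA2ox, so AtGATA2ox alone stood apart for that pair. HEMB1 minus GSA1 lay between 0.85 and 0.96 in Col, between 1.25 and 1.53 in bri1-116 and between 1.8 and 2.16 in AtGATA2ox, again without overlap. With the intensities as deposited, HEMB1 was thus ahead of GSA1 by 0.51 in bri1-116 and 1.01 in AtGATA2ox relative to Col. With quantile normalisation the fold changes of HEMB1 and GSA1 were 1.38 and 0.94 in bri1-116, and 1.2 and 0.45 in AtGATA2ox. Of the other 4 pairs computed, HEMB1 minus HEMA2 lay between 2 and 3.17 in Col, between 4.06 and 4.59 in bri1-116 and between 4.73 and 4.92 in AtGATA2ox. CHLM minus GSA1 lay between 0.99 and 1.24 in Col, below bri1-116 (1.59 to 2.28) and AtGATA2ox (1.61 to 2.09), which overlapped. The remaining pairs did not separate bri1-116 from Col. CHLM minus PORB lay between -1.9 and -1.52 in Col, between -1.66 and -0.8 in bri1-116 and between -1.51 and -1.1 in AtGATA2ox, and HEME1 minus HEMB1 between -2.55 and -2.2, between -2.43 and -1.84 and between -2.84 and -2.39.

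**Figure D5:**
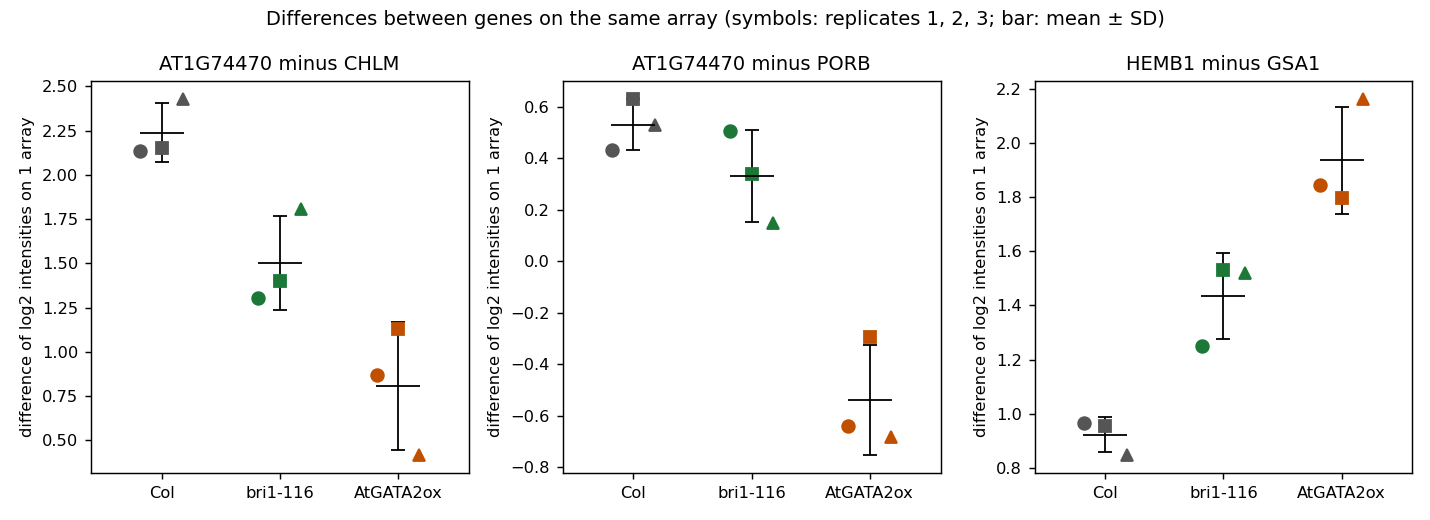
Difference of the log2 intensities of 2 genes on the same array, for AT1G74470 minus CHLM, AT1G74470 minus PORB and HEMB1 minus GSA1, with 1 point an array (circle, square and triangle for replicates 1, 2 and 3) and bars for the mean ± SD of 3 arrays. The left and right panels show 3 separate ranges, and in the middle panel AtGATA2ox lies below 0 and the other genotypes above it.

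Beyond the 8 genes, 6 of 52 other genes listed for the route and its surroundings had a named probe set. These were 4 of 12 in the shared trunk, 1 of 11 in the chlorophyll branch and 1 of 9 in chlorophyll breakdown, while none of the heme and bilin branch, the pathway regulators or the phytol supply was analysed here. In bri1-116, 2 of the 6 rose and none fell (median 0.52), beside 7.09% and 8% of all probe sets. In AtGATA2ox 1 of the 6 rose and none fell (median -0.03), beside 9.72% and 18.8%, and against bri1-116 1 was lower in AtGATA2ox, beside 17.2%. A single call among 6 genes is not set apart from these shares.

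HEME2, the second uroporphyrinogen III decarboxylase gene, read 869, 765.6 and 823.2 in Col, 1401.7, 1699.4 and 1874 in bri1-116 and 1349.2, 1605.8 and 1125.8 in AtGATA2ox. Like its paralog HEME1 it stood above Col in both genotypes, by 1.01 ± 0.17 in bri1-116 (adjusted p = 0.00091) and 0.72 ± 0.17 in AtGATA2ox (adjusted p = 0.0054). NOL encodes a chlorophyll b reductase, which starts the breakdown of chlorophyll b, and read 312, 279.8 and 337.6 in Col, 613.1, 524.5 and 751.2 in bri1-116 and 312.4, 191.9 and 185.1 in AtGATA2ox. NOL rose in bri1-116 (1.01 ± 0.24, adjusted p = 0.01) and was lower in AtGATA2ox than in bri1-116 (-1.48 ± 0.24, adjusted p = 0.00046), close to the values of AT1G74470 in the same comparisons. CHLI2, a subunit gene of the chelatase that inserts magnesium, was higher on every bri1-116 array than on any Col array but was not called (1.32 ± 0.46, adjusted p = 0.075), and in AtGATA2ox it ranged from 57.2 to 248.2. HEMA3 (5.7 to 49.5 over the 9 arrays), hemb2 (11.6 to 99.4) and AT5G63290 (39.1 to 119.3) were dim, and none was called in any of the 3 comparisons. The highest Bacillus control of each array ranged from 37.6 to 84.1. HEMA3 lay below that control on every array, and between 5.7 and 15.4 on 7 of the 9 arrays. Values of hemb2 exceeded it only on the 3 Col arrays, bri1-116 replicate 3 and AtGATA2ox replicate 2. AT5G63290 exceeded it on every array, though by little on bri1-116 replicate 3 (39.1 against 37.6). SIRB, which acts in the siroheme branch and was added to the lists after the annotation had been read, was not called in bri1-116 (0.38 ± 0.18, adjusted p = 0.21) or in AtGATA2ox (0.24 ± 0.18, adjusted p = 0.38).

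For each of the 8 genes, the most similar profile over the 9 arrays was sought among 6180 other probe sets with 1 gene and a mean intensity no lower than the overall median. Pearson r was 0.944 to 0.99, and the 9 arrays fall into 3 genotypes that every pair shares, so the values are a description only. For hemf2 the nearest was LYC (r = 0.982), the lycopene beta-cyclase gene of carotenoid synthesis, at 842 ± 5.56 in Col, 926 ± 85 in bri1-116 and 546 ± 42.2 in AtGATA2ox. For HEMA2 it was DPL1, a dihydrosphingosine phosphate lyase gene (r = 0.944). The others were AT3G06660 for GSA1, AT5G10160 for HEMB1, AT4G26400 for HEME1, AT1G64150 for CHLM, AT3G04760 for PORB and AT4G32910 for AT1G74470. The last read 724 ± 77.4 in Col, 1371 ± 50.8 in bri1-116 and 488 ± 83.7 in AtGATA2ox, and so had AT1G74470's own order of genotypes.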

How the data were processed

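The authors deposited 1 linear intensity for each probe set and array, and the submitters' processing notes name GCRMA and MAS5, with no version and no word on which made the values. Tested on the values, each array had a mean of 500 after the lowest and highest 2% were removed, so a broad change in 1 direction shifts the remaining probe sets the other way. Of 22810 probe sets, 64 controls were left out. Platform annotation gave 13513 probe sets 1 gene, 13436 of them matched to the TAIR10.1 gene table, used for names only. Neither a genome build nor detection calls were used here.

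Intensities were taken as log2(value + 1) without further normalisation, and 1 fit over all 9 arrays (lmFit, then eBayes with a trend in intensity, in limma 3.58.1 under R 4.3.3) gave the 3 comparisons, with Benjamini-Hochberg adjustment over 22746 probe sets. The fit was tested on simulated data. The 8 genes, the other lists and the tests were chosen with earlier results of these data known. Every gene of the pathway lists with a probe set of 1 locus was named, and the most similar profile of each of the 8. The labels name no separate cultures or hybridisation runs, so p-values measure the spread between these samples, and for AtGATA2ox, run and genotype cannot be told apart. Precision is limited by 3 arrays a genotype. No 2 arrays held identical values. Arrays with the same replicate number in different genotypes did not deviate together (r of -0.0181 to 0.0198 over 9 pairs), so they were not treated as pairs.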

Additional observations from a re-analysis of the deposited data

Results flagged for a closer look

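For 6 of the 8 genes the change against Col was called different between bri1-116 and AtGATA2ox, tested as the direct comparison of the 2 genotypes in limma. Over all probe sets 17.2% were called lower and 9.55% higher in that comparison. GSA1, HEME1 and PORB lost their calls with centring on the median (adjusted p = 0.21, 0.2 and 0.18) and without a trend in intensity (0.11, 0.11 and 0.086). The log2 difference was -0.55 for GSA1, -0.63 for HEME1, -3.75 for hemf2 (-2.24 with 16 in place of 1 added, its AtGATA2ox signal being below the Bacillus control medians), -0.79 for CHLM, -0.62 for PORB and -1.49 for AT1G74470, each lower in AtGATA2ox. AT1G74470 and hemf2 had changes of opposite sign against Col in the 2 genotypes (0.99 and -0.5 for AT1G74470, 0.18 and -3.57 for hemf2), of which the rise of AT1G74470 in bri1-116 and the fall of hemf2 in AtGATA2ox were called.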

How the results depend on the processing

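Of 349 gene values recomputed under alternatives, 285 kept their direction and their side of the threshold. With the direction kept, 48 lost a call and 7 gained one, and the other 9 changed sign. Among those 9, HEME1, CHLM and PORB in AtGATA2ox against Col also lost their calls, and GSA1 was called lower there. All 4 were with the hybridisation controls. Leaving out 1 array at a time, 6 genes were called higher in bri1-116 each time (median 0.99 to 1.18), 3 to 4 higher and 1 to 3 lower in AtGATA2ox (median 0.33 to 0.59; 3 lower without AtGATA2ox replicate 2 and 1 lower without each of the other arrays), and 3 to 6 lower in AtGATA2ox against bri1-116 (median -0.71 to -0.48), with 3 without AtGATA2ox replicate 3 or bri1-116 replicate 1 or 3. HEMB1 between the genotypes ranged from -0.1 to 0.05, and hemf2 in bri1-116 from -0.31 to 0.52. With centring on the median 5 genes were higher (GSA1 gained a call) and 1 lower in AtGATA2ox (median 0.77) and 3 lower against bri1-116 (median -0.42), with HEMB1 at 0.16. Of all 22746 probe sets, 3465 were then called higher and 2501 lower in AtGATA2ox, and 2717 lower against bri1-116. With scaling to the hybridisation controls 0 genes were higher and 4 lower in AtGATA2ox (median -0.62), 3 were higher in bri1-116 (median 0.59), and all 8 were lower against bri1-116 (median -1.18). Of all 22746 probe sets, 12042 were then called lower in AtGATA2ox, 452 higher in bri1-116 and 7538 lower in AtGATA2ox against bri1-116. That scaling also gave GSA1 -0.76, HEME1 -0.08, CHLM -0.12 and PORB -0.48 in AtGATA2ox and hemf2 -0.31 in bri1-116. Without a trend 3 genes were higher and 1 lower in AtGATA2ox, 5 higher in bri1-116 and 3 lower against bri1-116, and with only the 2 groups compared 3 were higher and 1 lower in AtGATA2ox and 5 lower against bri1-116.

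Leaving out bri1-116 replicates 1 and 2 together, chosen after seeing the data and with the lone array assumed to vary like the others, left 4 higher in bri1-116 and 1 lower in AtGATA2ox against bri1-116 (AT1G74470), with hemf2 at -0.49 in bri1-116. With the replicate block the calls were 4 higher and 2 lower in AtGATA2ox, 6 higher in bri1-116 and 6 lower between the genotypes, as without it, though replicate numbers do not pair the arrays. The share of calls that were higher over all probe sets was 34.1% in AtGATA2ox and 47% in bri1-116 as deposited, 47.2% and 51.2% with quantile normalisation, 58.1% and 59.9% after centring, and 3.36% and 10.5% with the hybridisation controls. No gene had a dimmer second probe set among those annotated to 1 gene, so that alternative gave no value. Of 22810 probe sets, 503 had several genes and 8794 were not in the annotation, and these were not searched. With the dimmest 40% of probe sets hemf2 was removed. Signal near that of the Bacillus controls, on some or all arrays, limits hemf2 and the 3 dim genes of the trunk. Causes of these changes were not tested.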
